A study of Saccharomyces cerevisiae with 12 samples.

Results

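The expression profile of budding yeast (Saccharomyces cerevisiae) without SNF5 was set against the wild type, across all genes. The comparison takes 6 of the series' 12 RNA-seq libraries, chosen by the table columns named for the snf5 deletion and for the wild type, with 3 independent biological replicates in each group. All strains are BY4741, of mating type a, with the markers his3delta_1, leu2delta_0, met15delta_0 and ura3delta_0. In the snf5 deletion strain kanMX4 replaces SNF5, and Snf6 carries a 2FLAG tag with LEU2. In the wild type every SWI/SNF gene is in place, and it is Snf2 that carries the 2FLAG tag with LEU2. Tag position therefore goes with the comparison, and its effect and that of losing Snf5 cannot be told apart. Cultures of all groups were in log phase at 30 °C, at an OD600 of 0.75 to 1.0. Libraries labelled snf2 deletion and swp82 deletion, 3 of each, have the snf5 deletion's design by their labels (kanMX4 in the named gene, the tag with LEU2 on Snf6), though they hold 0 LEU2 reads, and enter where the snf5 deletion is set against them.

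SWI/SNF is a nucleosome remodeler: it uses the energy of ATP, through its Snf2 subunit, to slide or evict nucleosomes at promoters, where activators recruit it. Snf5 is one of its core subunits, conserved in the human complex as SMARCB1. In yeast, swi and snf mutants were first isolated for failing to switch mating type, which needs the HO gene, and to ferment sucrose. The series asked what remains of the complex and its activities when Snf5 is missing.

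The table holds 5935 genes, of which 5820 passed a filter on low values and were tested. Values are the deposited signal, CPM divided by a scaling factor for each library, called scaled CPM here, and per-library values are given in the order of replicates 1, 2 and 3. The 6 libraries held 10064753 to 12875057 reads on genes. Log2 fold changes are the snf5 deletion over the wild type on the log2(value + 1) scale, ± SE, with limma's adjusted p. Expression was measured in bulk, so that fewer cells with a transcript and less transcript per cell cannot be told apart.

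SNF5 (YBR289W, chromosome II, 779667 to 782384) was at 0, 0.183 and 0 scaled CPM in the snf5 deletion libraries, against 102, 97.7 and 98.2 in the wild type. The deletion libraries held 2 reads of the gene in all, both in replicate 2, against 3372 in the wild type. APM3, the divergent neighbour whose start faces that of SNF5, was at 97.7, 102 and 102 in the deletion and 59.4, 52.6 and 58.4 in the wild type, a rise of 0.82 ± 0.08 (limma adjusted p = 2.55e-05). Its groups did not overlap. The next gene on that side, YBR287W, was not called (-0.22 ± 0.11, adjusted p = 0.153), nor was BSD2, which follows SNF5 (0.10 ± 0.06, adjusted p = 0.274). CTP1, the mitochondrial citrate carrier gene beyond BSD2, fell by 0.40 ± 0.10 (adjusted p = 0.0139). These 4 neighbours were taken for their position, outside the rule for named genes. The other marker of the strain, LEU2, was at 78.6, 56.9 and 88.5 in the deletion and 57, 56.3 and 55.3 in the wild type, with 1 deletion library inside the range of the wild type.

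The 3 snf5 deletion libraries differed among themselves more than the wild-type libraries did. Pairwise correlations of log2 values across genes were 0.975 to 0.993 among the deletion libraries and 0.995 to 0.998 among the wild type. The range over replicates exceeded 1 on the log2 scale for 309 genes in the deletion and for 15 in the wild type, with median ranges of 0.24 and 0.15. Of those 309 genes, 145 were highest in replicate 1, 10 in replicate 2 and 154 in replicate 3. Stress and ribosome biogenesis genes among them are described with their groups.

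In all, 1704 genes (29.3% of those tested) were called at an adjusted p under 0.05, 862 of them higher in the snf5 deletion (14.8%) and 842 lower (14.5%). With total-count scaling in place of the deposited factors the split was 1368 higher and 549 lower, and the median of all genes was 0.08 in place of -0.01. Most called changes were small, with a median size of 0.40 on the log2 scale. The 2 groups did not overlap in 1672 of the 1704 called genes, so a lack of overlap sets no called gene apart. At least 2-fold changes numbered 111 higher (1.91%) and 162 lower (2.78%), at least 4-fold ones 18 and 54, and at least 8-fold ones 2 and 21. By at least 2-fold, other settings gave 160 higher and 181 lower (pseudocount 0.1), 163 and 181 (edgeR), 161 and 181 (DESeq2) and 127 and 141 (total-count scaling), so the gap depends in part on the added 1. Without replicate 1 of the deletion 735 genes were called higher and 792 lower, and without its replicate 3 the counts were 957 and 972. Calls that held without any 1 of the 6 libraries numbered 525 higher and 543 lower, and 266 of the 273 at least 2-fold calls were among them. The authors' deposited list of 506 genes holds 262 of those 273.

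**Figure D1:**
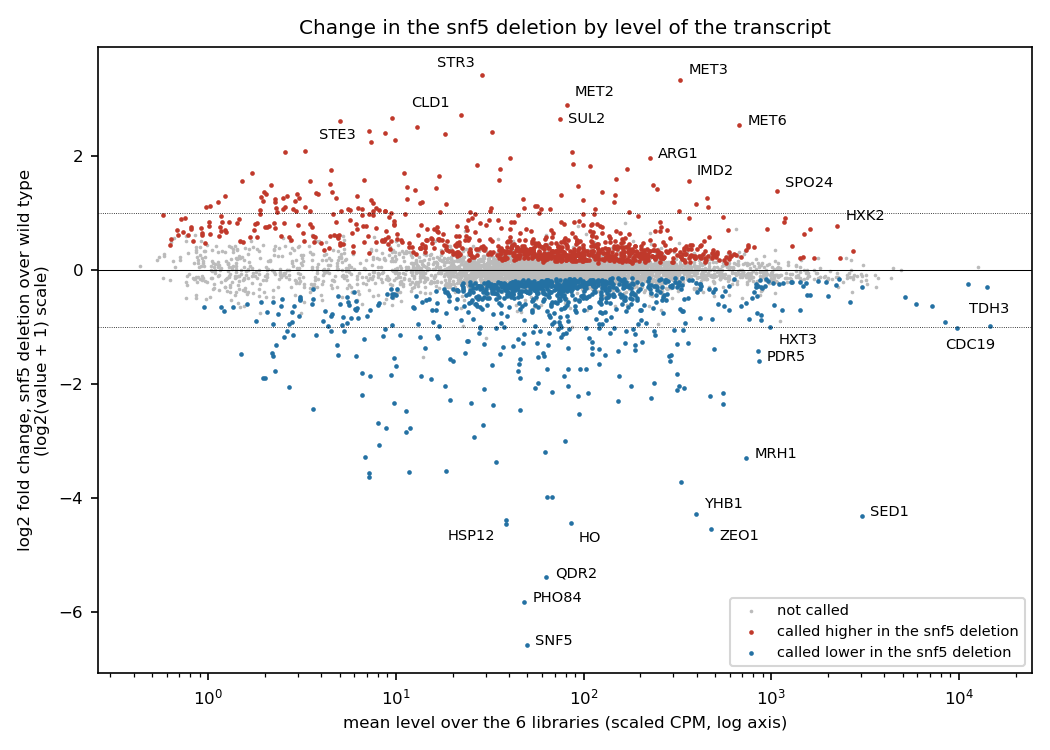
Each point is a gene, by its mean level over the 6 libraries (scaled CPM, log axis) and its log2 fold change in the snf5 deletion over the wild type. The 862 red and 842 blue points are genes called higher and lower, dotted lines mark 2-fold, and named genes show that the lowest fold changes reach further from 0 than the highest.

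The lowest fold changes after SNF5 itself were those of PHO84, QDR2 and ZEO1. PHO84, the high-affinity phosphate transporter, was at 0.472, 0.734 and 0.928 scaled CPM in the deletion and 81.6, 95.8 and 109.8 in the wild type (-5.82 ± 0.18, adjusted p = 2.76e-09). Its annotated range overlaps the non-coding RNA gene YNCM0001W, so its reads are uncertain in part. All 3 deletion values of PHO84 lie below the added 1, so its fitted fold change depends on that 1 and understates the drop. QDR2, a drug exporter of the plasma membrane, was at 2.08, 1.74 and 2.23 in the deletion and 128, 128 and 117 in the wild type, a log2 fold change of -5.38 ± 0.11 (limma adjusted p = 1.12e-10). ZEO1, a plasma membrane protein linked to the cell integrity pathway, was at 36.9, 43.8 and 34.3 in the deletion and 848, 936 and 953 in the wild type (-4.54 ± 0.11, adjusted p = 3.79e-10). In each of these 3 genes every deletion library was far below every wild-type library. HO, the endonuclease that starts mating-type switching, was at 5.10, 7.98 and 7.06 in the deletion and 162, 154 and 176 in the wild type (-4.44 ± 0.13, adjusted p = 1.77e-09). YHB1, the flavohemoglobin that detoxifies nitric oxide, was at 34.3, 36.3 and 43.5 in the deletion and 695, 755 and 805 in the wild type (-4.27 ± 0.11, adjusted p = 5.39e-10). Both sets of libraries were tight, and neither gene's groups came near each other.

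Further down the same list stood AZR1 (-3.54), an exporter linked to azole resistance, and RSB1 (-3.56), which exports sphingoid bases. LSO1 (-3.62) and YGR035C (-3.97) completed the 15 lowest, beside genes of the wall and stress groups below. RSB1 and LSO1 had at most 0.377 scaled CPM in any deletion library, so their fitted fold changes depend on the added 1 and understate the drop. All of these calls held without any 1 of the 6 libraries.

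Transcripts that rose furthest were fewer and rose less. STR3, a cystathionine beta-lyase of methionine synthesis, had the highest fitted change (3.41 ± 0.48, adjusted p = 0.000351), with 17.7, 43.4 and 103 scaled CPM in the deletion and 3.83, 3.53 and 2.27 in the wild type. Its deletion libraries differed widely, and the lowest of them was still above every wild-type library. CLD1, a phospholipase that acts on cardiolipin, was at 40.1, 43.7 and 34.4 in the deletion and 5.88, 5.61 and 4.02 in the wild type (2.72 ± 0.14, adjusted p = 1.3e-07). RCK1, a protein kinase gene, was at 18.4, 24.6 and 25.5 in the deletion and 2.90, 3.05 and 3.61 in the wild type (2.50 ± 0.14). Groups were well apart in both. The rest of the 15 highest, outside the groups described below, were YPL025C (2.67), YMR244W (2.61), CSS1 (2.41) and SPO20, a SNARE of spore membrane formation (2.25). YPL025C is not placed in the R64 annotation, and 17.3% of the 50-base windows of CSS1 occur elsewhere in the genome, so its reads are uncertain. Among abundant transcripts, SPO24, a gene of sporulation, was at 2006, 1491 and 1176 in the deletion and 603, 586 and 551 in the wild type (1.39 ± 0.21, adjusted p = 0.000607), and DLD3, a lactate dehydrogenase linked to the retrograde response, at 649, 549.7 and 673 in the deletion and 288, 279 and 302 in the wild type (adjusted p = 4.47e-06). The groups did not overlap in either.

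**Figure D2:**
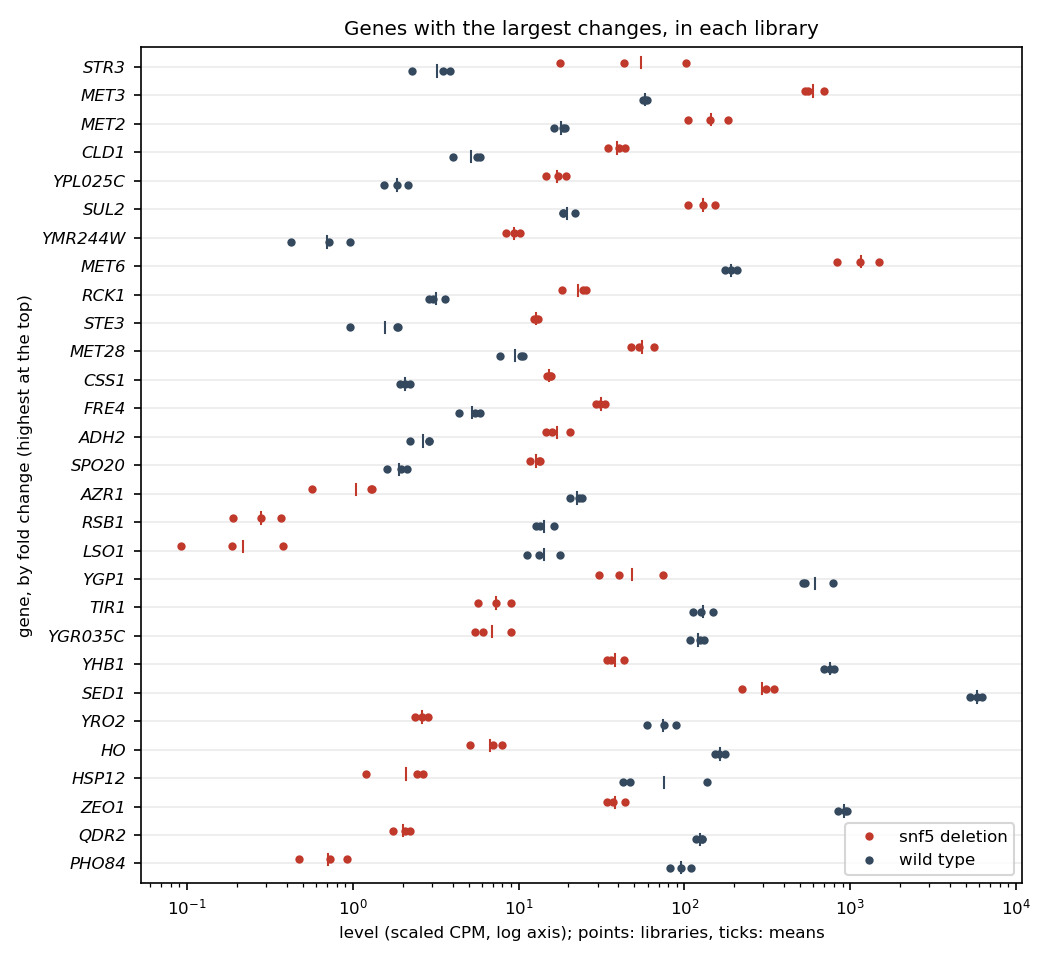
Levels (scaled CPM, log axis) of the 15 genes with the highest and 14 of the 15 with the lowest fold changes, highest fold change at the top, SNF5 left out. Points are the 3 snf5 deletion libraries (red) and the 3 wild-type libraries (dark), and ticks are group means. The groups overlap in none of these genes, because the choice of genes required it.

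Genes of sulfate uptake and reduction led the rises. Yeast takes up sulfate, activates it with ATP and reduces it to sulfide, which is then built into homocysteine, methionine, cysteine and S-adenosylmethionine. The genes are switched on by Met4 with Cbf1, Met28, Met31 and Met32 when these products run low. All 9 genes from uptake to sulfide were called higher, with a median log2 fold change of 1.59 against -0.01 over all genes tested, and without any 1 library at least 8 were still called. MET3, the ATP sulfurylase, was at 533, 555 and 701 scaled CPM in the deletion and 59.4, 56 and 57.9 in the wild type (3.33 ± 0.09, adjusted p = 7.53e-10). SUL2, a sulfate permease, was at 105, 130.1 and 154 in the deletion and 18.5, 21.8 and 18.7 in the wild type (2.65 ± 0.14, adjusted p = 1.63e-07). MET14, the kinase that follows ATP sulfurylase, was at 113, 132 and 178 in the deletion and 30.7, 32.6 and 33.7 in the wild type (2.07 ± 0.14, adjusted p = 9.61e-07). In these genes the deletion's replicate 3 was highest and its replicate 1 lowest, and all 9 members were highest in replicate 3. The groups did not overlap in any of the 3.

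Downstream steps moved less evenly. Of 23 genes for the synthesis and uptake of methionine, cysteine and S-adenosylmethionine, 12 were called higher and 2 lower (median 0.25). MET6, the methionine synthase, was the most abundant of the 15 transcripts with the highest fold changes, at 829, 1148 and 1493 in the deletion and 208, 176 and 191 in the wild type (2.55 ± 0.17, adjusted p = 1.08e-06). MET2, which activates homoserine for sulfur transfer, was at 105, 143 and 184 in the deletion and 19.2, 16.3 and 18.5 in the wild type (2.90 ± 0.19). SAM2, an S-adenosylmethionine synthetase, was at 325, 337 and 378 in the deletion and 122, 119.6 and 125 in the wild type (1.49 ± 0.10). Against these stood IRC7, a cysteine beta-lyase, at 19.4, 25.6 and 29.2 in the deletion and 105, 115 and 111 in the wild type (-2.13 ± 0.14, adjusted p = 9.61e-07). Of 6 regulators, MET28 (47.5, 53 and 65.9 in the deletion and 10.4, 7.69 and 10.6 in the wild type), MET32 (1.40 ± 0.18) and MET30, the ubiquitin ligase subunit that restrains Met4 (0.50 ± 0.10), were called higher and the other 3 were not called.

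Promoters of many sulfur genes hold the letters known for their regulators, CACGTG (Cbf1) and TGTGGC (Met31 and Met32). Shown are 80 bases each of the genome sequence (RefSeq R64, the same assembly as the sacCer3 build of the files), read 5′ to 3′ on the strand of the gene. The 80 bases are the stretch, at least 100 bases before the annotated start, that holds the most matches, and capitals mark every match on either strand. MET3 is on the plus strand (chrX:455825-455904), SUL2 on the plus strand (chrXII:323183-323262) and MET28 on the minus strand (chrIX:384333-384412).
MET3: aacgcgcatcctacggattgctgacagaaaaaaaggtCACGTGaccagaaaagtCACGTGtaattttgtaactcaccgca
SUL2: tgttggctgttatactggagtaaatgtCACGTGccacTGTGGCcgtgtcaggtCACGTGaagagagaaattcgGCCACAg
MET28: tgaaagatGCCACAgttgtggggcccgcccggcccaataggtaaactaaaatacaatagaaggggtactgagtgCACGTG
Within 500 bases before the start, CACGTG stands in 88.9% of the 9 sulfate genes and 83.3% of the 6 regulators, against 6.27% of the 5626 tested genes with such a window. The share for TGTGGC is 66.7% in both lists, against 14.3% of all. Among the 23 methionine, cysteine and S-adenosylmethionine genes the shares are lower, 39.1% for CACGTG and 56.5% for TGTGGC. These lists also hold genes that were not called higher, such as 3 of the 6 regulators.

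Other amino acid genes parted by pathway. Arginine synthesis rose in part: of 17 genes of arginine synthesis and breakdown 5 were called higher and 2 lower (median 0.25), against 14.8% and 14.5% of all genes. Without replicate 1 of the deletion 8 were higher and 3 lower, and with total-count scaling 9 and 2. ARG1, the argininosuccinate synthetase, was at 222, 286 and 588 in the deletion and 74.3, 85.2 and 97.6 in the wild type (1.96 ± 0.30, adjusted p = 0.000617). ARG3, ornithine carbamoyltransferase, was at 19.7, 35.4 and 77.6 in the deletion and 9.71, 9.38 and 10.7 in the wild type (1.84 ± 0.35, adjusted p = 0.00234). Replicate 3 was highest in both, by more than 2-fold over replicate 1, and the groups did not overlap. ARG56 (YER069W), which encodes enzymes early in the pathway, rose by 1.24 ± 0.19. CAR2, the ornithine transaminase of arginine breakdown, fell to 22.5, 18.3 and 11.1 in the deletion, against 186, 111 and 129 in the wild type (-2.99 ± 0.30, adjusted p = 2.77e-05). Gcn4, the activator of amino acid synthesis, binds TGACTC and its like, and those letters stand before 76.5% of the 17 arginine genes, 25.5% of the 102 genes called at least 2-fold higher that have a window, and 12.9% of all. ARG1 (plus strand, chrXV:218863-218942) is shown as the gene of this group with the largest rise, with TGACTC in capitals.
ARG1: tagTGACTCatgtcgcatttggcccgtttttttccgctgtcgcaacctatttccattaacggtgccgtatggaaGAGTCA
GCN4 and the 2 asparagine synthetase genes, with 2 more of their list, gave 0 calls among 5 by limma, edgeR's quasi-likelihood test and DESeq2, with 1 lower at an unadjusted p under 0.05. ASN1 had the smallest p (-0.43 ± 0.20, adjusted p = 0.124), at 543, 656 and 1078 in the deletion and 939.8, 985 and 1023 in the wild type, where replicate 3 of the deletion lay above the wild type and the other 2 below.

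Genes of glycine and serine metabolism moved in both directions. The glycine cleavage system, which splits glycine into carbon dioxide, ammonia and a one-carbon unit, was lower in its 3 specific subunits. GCV1 was at 18, 20.7 and 23.8 in the deletion and 97.9, 86.6 and 84.4 in the wild type (-2.06 ± 0.10, adjusted p = 9.42e-08). GCV2 fell by 1.74 ± 0.11 and GCV3 by 1.06 ± 0.08. Serine synthesis went the other way: SER33, one of a pair of phosphoglycerate dehydrogenases, was at 214, 208 and 285 in the deletion and 112, 115 and 115 in the wild type (1.03 ± 0.10), and its partner SER3 at 144, 122 and 149 in the deletion and 78.6, 84.9 and 74 in the wild type (0.80 ± 0.08), though SER3 shares reads with the overlapping transcript SRG1. Both rose without overlap. In all, 5 of 15 genes of serine, glycine and one-carbon metabolism were called higher and 6 lower. The 15 genes of aromatic amino acid synthesis and breakdown had 4 higher and 3 lower (median 0.11). The 12 leucine and branched-chain genes had 2 and 2, a share of 33.3% called that was near the 29.3% of all genes. ARO10, the decarboxylase of aromatic amino acid breakdown, was at 5.76, 6.79 and 3.43 in the deletion and 69, 59.3 and 59.2 in the wild type (-3.36 ± 0.42, adjusted p = 0.000163), and ARO9, the transaminase before it, fell by 1.97 ± 0.43. BAT2, the cytosolic branched-chain transaminase, was at 127, 117 and 110.1 in the deletion and 514, 493 and 514 in the wild type (-2.10 ± 0.13, adjusted p = 4.96e-07). Of 16 amino acid permeases 4 were called higher and 5 lower, and TAT1 (-1.49), AGP1 (-1.31), BAP2 (-1.05) and TAT2 (-0.83) were among the lower. At least 2-fold changes numbered 2 higher and 3 lower, and the highest fold change of the list was 1.69. Over all genes 14.8% were called higher and 14.5% lower. TAT1 and BAP2 lie side by side on chromosome II, and TAT1 overlaps the annotated feature TBRT. Among nitrogen genes GDH1, the NADP-linked glutamate dehydrogenase, rose by 1.17 ± 0.15, and GLN1, glutamine synthetase, by 0.84 ± 0.12.

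Nutrient acquisition genes for phosphate and iron fell in part. Of 18 genes for phosphate uptake, scavenging and storage 9 were called lower and 2 higher (median -0.25), or 8 and 5 with total-count scaling. PHO3, a secreted acid phosphatase, was at 100, 144 and 157 in the deletion and 518, 593 and 547 in the wild type (-2.06 ± 0.14, adjusted p = 1.03e-06), and PHM6 fell by 1.17 ± 0.14. Signalling genes of this pathway changed little, with PHO81, the inhibitor of the Pho85 kinase, at -0.47 ± 0.07 and PHO2, a partner of the activator Pho4, at 0.23 ± 0.06. Pho4 binds CACGTG too, and 72.2% of the 18 genes hold those letters within 500 bases. PHO84 (minus strand, chrXIII:26194-26273) holds 2 matches, shown in capitals.
PHO84: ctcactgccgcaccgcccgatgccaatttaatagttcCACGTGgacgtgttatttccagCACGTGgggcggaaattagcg
CACGTG thus stands both in promoters of genes that rose, such as MET3, and in that of the gene that fell furthest.

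Iron uptake genes were more often lower. Of 22 genes for siderophores and iron uptake 10 were called lower and 3 higher, or 10 and 5 with total-count scaling. SIT1, a siderophore transporter, was at 24, 23.2 and 36.8 in the deletion and 157, 149.9 and 177 in the wild type (-2.51 ± 0.17, adjusted p = 1.26e-06). FIT2, a wall mannoprotein that holds siderophores, was at 84.5, 71.3 and 79.1 in the deletion and 382, 309 and 446 in the wild type (-2.25 ± 0.17, adjusted p = 2.79e-06). ARN1 and ENB1, which also carry siderophores, fell by 1.86 ± 0.09 and 1.36 ± 0.10. Groups did not overlap in any of these 4. The 3 called higher, named after their values were seen, were FET5 (0.19), FTH1 (0.26) and SMF3 (0.40), which act in iron transport at the vacuole. Among 12 metalloreductase and copper uptake genes 2 were called higher and 5 lower. FRE7 was at 1.23, 2.84 and 0.835 in the deletion and 14.2, 17.1 and 16.6 in the wild type (-2.76 ± 0.29, adjusted p = 3.64e-05) and FRE4 at 29.3, 30.9 and 33.4 in the deletion and 4.34, 5.85 and 5.46 in the wild type (2.38 ± 0.11, adjusted p = 6.57e-08), so 2 genes of 1 reductase family moved in opposite directions. The letters TGCACCC, known for the iron regulators Aft1 and Aft2, stand before 72.7% of the 22 siderophore and iron genes and 2.33% of all.

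Drug transporter genes and those of their regulators were mostly lower, with 16 of 23 called lower and 2 higher (median -0.53). PDR5, an abundant exporter of the ABC family, was at 382, 403 and 499 in the deletion and 1321, 1200.2 and 1328 in the wild type (-1.59 ± 0.18, adjusted p = 7.75e-05). TPO1, a polyamine exporter, was at 11.4, 14.2 and 14.5 in the deletion and 74.8, 88.5 and 70.4 in the wild type (-2.46 ± 0.10, adjusted p = 3.59e-08). Neither gene's groups came near each other. The letters TCCGCGGA, known for Pdr1 and Pdr3, stand before 21.7% of the 23 genes and 0.622% of all, though not within 500 bases of QDR2, TPO1 or RSB1. PDR5 (plus strand, chrXV:619491-619570) has 2 matches within 500 bases, 1 of them in the stretch shown, in capitals.
PDR5: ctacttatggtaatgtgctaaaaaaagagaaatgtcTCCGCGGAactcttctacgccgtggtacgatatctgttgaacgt

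Structural cell wall proteins fell. Of 17 structural wall and surface proteins tested 10 were called lower and 0 higher, with a median of -0.69, and the 0 higher held for edgeR's quasi-likelihood test, DESeq2 and an unadjusted p under 0.05 in limma. With total-count scaling 1 was called higher. SED1, an abundant GPI-linked wall glycoprotein, was at 347, 312 and 223 scaled CPM in the deletion and 6278, 5815 and 5276 in the wild type (-4.32 ± 0.19, adjusted p = 5.99e-08). Per kb of gene its mean was 289 in the deletion and 5693 in the wild type, where CDC19, a glycolytic gene, had 4326 in the deletion and 8680.1 in the wild type. YGP1, a secreted glycoprotein, was at 74.3, 40.6 and 30.4 in the deletion and 788, 536 and 519 in the wild type (-3.71 ± 0.31, adjusted p = 7.18e-06), and PST1 at 77.9, 76.8 and 56.2 in the deletion and 301, 299 and 259 in the wild type (-2.02 ± 0.15). In all 3 the deletion was below the wild type without overlap. TIR1 and TIR3, mannoproteins of anaerobic and cold growth, were at 8.97, 7.34 and 5.66 in the deletion and 125, 113 and 148 in the wild type (-3.97 ± 0.21, adjusted p = 1.87e-07) and at 8.02, 7.52 and 7.33 in the deletion and 46, 37.9 and 44 in the wild type (-2.34 ± 0.14). Of the windows of TIR1, 13% occur elsewhere in the genome. Their relative TIR2 was higher, at 41.1, 39.5 and 42.3 in the deletion and 20.2, 23.6 and 21.5 in the wild type (0.88 ± 0.09). Of 23 enzymes that build or trim glucan and chitin, 7 were called higher and 8 lower: EXG1, an exoglucanase, fell by 1.43 ± 0.07 and SCW4, a glucanase, by 0.87 ± 0.07, while CRH1, which links chitin to glucan, rose by 0.72 ± 0.08. MRH1 and YRO2, plasma membrane proteins of 1 family, fell together, MRH1 at 122, 148 and 138 in the deletion and 1307, 1411 and 1284 in the wild type (-3.29 ± 0.08) and YRO2 at 2.83, 2.38 and 2.60 in the deletion and 89.4, 74.9 and 59.3 in the wild type (-4.37 ± 0.20). HSP30, of the same family, was not called.

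General stress genes were called lower more often than higher, and stress genes spread widely among the deletion libraries. Msn2 and Msn4 switch on a general stress response through the letters AGGGG, and Hsf1 drives the chaperones of the heat shock response. Of 24 general stress genes 7 were called lower and 1 higher (median -0.17), against 14.5% and 14.8% of all genes. HSP12, a small membrane-stabilising protein, was at 2.45, 2.66 and 1.21 in the deletion and 136, 46.7 and 42.8 in the wild type (-4.44 ± 0.52, adjusted p = 9.68e-05). MSN4 itself was at 29.5, 31.5 and 26.8 in the deletion and 91.2, 86.5 and 79 in the wild type (-1.52 ± 0.07, adjusted p = 1e-07), and the groups did not overlap in either gene. DDR2 and HSP26, stress-induced genes, fell by 2.48 ± 0.38 and 2.36 ± 0.41. AGGGG stands before 79.2% of the 24 genes and 34.4% of all, and HSP12 (plus strand, chrVI:106804-106883) holds 5 matches within 500 bases, 3 of them in capitals here.
HSP12: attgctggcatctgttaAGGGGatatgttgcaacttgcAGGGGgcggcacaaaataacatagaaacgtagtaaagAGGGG

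The rest of the stress genes differed between the deletion's own libraries. TSL1, a subunit of trehalose synthase, was at 869, 207 and 31.7 in the deletion and 261, 138 and 138 in the wild type, so the deletion spans both sides of the wild type (0.08 ± 0.90, adjusted p = 0.957). HSP104, the disaggregase, was at 779.8, 305 and 87.1 in the deletion and 374, 247 and 262 in the wild type, and HSP82, the inducible Hsp90, at 548, 259.6 and 61.3 in the deletion and 419, 235 and 248 in the wild type. Neither was called. These 3 genes, and HSP42, GPD1, GLK1, DBP2 and NSR1 in the plot of the spread, lie outside the rule for named genes and were chosen after their values were seen. Relative to the wild-type mean, the median of the general stress list was 0.26, -0.23 and -0.96 in replicates 1, 2 and 3 of the deletion, and that of 25 heat shock chaperones 0.21, -0.04 and -0.59. Replicate 1 was the highest deletion library for 21 of 24 general stress genes, 22 of 25 chaperones and 17 of 17 trehalose and glycogen genes. Replicate 1 of the wild type was highest in that group for 23, 23 and 17 of them. Without replicate 1 of the deletion the general stress list had 10 called lower and 1 higher and a median of -0.66, and without replicate 3 it had 7 and 2 and a median of -0.02. Among chaperones 1 was called higher (FES1) and 1 lower (SSE1), and these calls held in 1 and 3 of the 6 fits that each left out a library. Among 17 trehalose and glycogen genes NTH2 alone was called (0.45 ± 0.13), which it lost without 3 of the 6 libraries. What set these libraries apart was not tested.

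**Figure D3:**
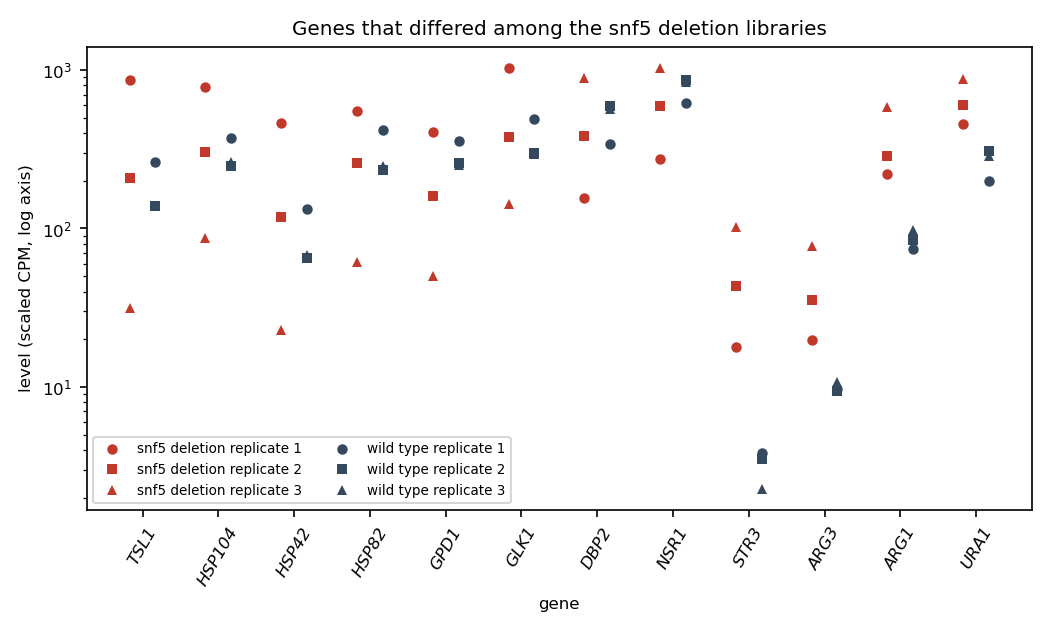
Levels (scaled CPM, log axis) of 12 genes in the 3 snf5 deletion libraries (red) and 3 wild-type libraries (dark), with a symbol for each replicate number. TSL1 stands at 869 in replicate 1 of the deletion and 31.7 in replicate 3, and HSP104, HSP42, HSP82, GPD1 and GLK1 have the same order, while DBP2, NSR1 and the other 4 genes are highest in replicate 3.

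Mating genes of a cells fell, and a receptor gene of the other mating type rose. Haploid a cells respond to alpha-factor through the receptor Ste2, a G protein and a kinase cascade that ends in Fus3 and the activator Ste12. All 7 a-specific markers were present, as the label says, and 6 of the 7 were called lower (median -0.85), with 0 higher by limma, edgeR's quasi-likelihood test, DESeq2 or an unadjusted p under 0.05. Their summed level was 1912, 1905 and 1975 scaled CPM in the deletion and 3634, 3903 and 3577 in the wild type. MFA1, an a-factor precursor gene, was at 106, 123 and 152 in the deletion and 500.5, 552 and 491 in the wild type (-2.02 ± 0.18, adjusted p = 8.88e-06), and MFA2, the other, at 584, 518 and 528 in the deletion and 968, 1038 and 933 in the wild type (-0.85 ± 0.07). AGA2, an agglutinin subunit, was at 142, 146 and 155 in the deletion and 408, 449.8 and 406 in the wild type. In all 3 genes the groups were apart. BAR1, the protease that degrades alpha-factor, fell by 1.29 ± 0.09, STE6, the a-factor exporter, by 0.67 ± 0.05, and STE2 by 0.48 ± 0.09. ASG7 was not called (-0.23 ± 0.11, adjusted p = 0.141). STE3, the a-factor receptor of alpha cells, was at 12.5, 12.7 and 13.1 in the deletion and 1.87, 0.962 and 1.86 in the wild type (2.44 ± 0.17, adjusted p = 1.48e-06), with no overlap. The alpha-factor genes MF(ALPHA)1 and MF(ALPHA)2 had at most 1.32 scaled CPM in any of the 6 libraries, where MF(ALPHA)1 was called higher (0.62 ± 0.17) in 3 of the 6 fits that left out a library. SAG1 was at 71.9, 75.9 and 74.1 in the deletion and 74.9, 81.3 and 80.7 in the wild type and not called. Over the 4 alpha markers the sum was 86.3, 90.3 and 88.7 in the deletion and 77.3, 83.1 and 83.5 in the wild type. The part of any other cell type in these changes was not tested.

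Along the pheromone pathway 9 of 16 signalling genes were called lower and 2 higher. With total-count scaling 6 were lower and 4 higher, and 7 were lower without replicate 2 or 3 of the wild type. FUS3, the mating kinase, was at 58.1, 66 and 79.8 in the deletion and 181, 208 and 186 in the wild type (-1.49 ± 0.12, adjusted p = 4.28e-06). SST2, which switches the G protein off, was at 94.5, 113 and 103 in the deletion and 271, 273 and 275 in the wild type (-1.39 ± 0.07, adjusted p = 1e-07), and GPA1, the G protein's alpha subunit, fell by 0.42 ± 0.06. Of 17 fusion and agglutination genes 9 fell and 1 rose, with AGA1, the anchor of the agglutinin, at 122, 153 and 144 in the deletion and 495, 512 and 471 in the wild type (-1.82 ± 0.15). In that list 6 fell and 2 rose with total-count scaling, and 6 fell without replicate 1 of the wild type. The letters TGAAACA, known for Ste12, stand before all 7 a-specific genes, 50.0% of the 16 signalling genes, 70.6% of the 17 fusion and agglutination genes and 11.7% of all. FUS3 (plus strand, chrII:192152-192231) and SST2 (minus strand, chrXII:1041569-1041648) are shown, with TGAAACA or its reverse complement TGTTTCA in capitals.
FUS3: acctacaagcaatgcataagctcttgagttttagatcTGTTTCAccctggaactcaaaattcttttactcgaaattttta
SST2: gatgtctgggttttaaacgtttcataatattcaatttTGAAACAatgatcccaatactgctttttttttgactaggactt
Around HO, genes expressed late in mitosis and in daughter cells fell too: 7 of 17 were called lower and 1 higher, HO included. ASH1, the repressor of HO in daughter cells, was at 132, 124 and 142 in the deletion and 254, 264 and 252 in the wild type (-0.95 ± 0.09, adjusted p = 1.66e-05). CLB1, a mitotic cyclin, was at 45.3, 49 and 43.9 in the deletion and 99.3, 116 and 98.7 in the wild type (-1.17 ± 0.14), and 4 of 11 cyclin genes were lower and 1 higher. SIR2, the silencing deacetylase, was at 38.7, 49.5 and 55.2 in the deletion and 77.5, 88.8 and 88.5 in the wild type (-0.83 ± 0.12, adjusted p = 0.000322), 1 of 2 called lower among 7 silencing factors. Over all genes 14.5% were called lower and 14.8% higher, and 2 of 7 silencing factors are too few to set against that.

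Carbon genes shifted between sugars and steps. Of 17 glycolysis genes 11 were called lower and 1 higher (median -0.27), or 8 and 1 with total-count scaling. TDH3, a glyceraldehyde-3-phosphate dehydrogenase, was at 10832, 10562 and 8226 in the deletion and 19839, 18674 and 19114 in the wild type (-0.97 ± 0.12, adjusted p = 0.00012), with 24.4% of its 50-base windows found elsewhere in the genome. CDC19, pyruvate kinase, was at 6812, 5771 and 6925 in the deletion and 13141, 13082 and 12915 in the wild type (-1.01 ± 0.09). Every deletion library was below every wild-type library in both. HXK2, the main hexokinase on glucose, was at 2719, 2559.6 and 3219.9 in the deletion and 1623, 1639 and 1675 in the wild type (0.78 ± 0.08), the 1 gene of the list that rose. Hexose transporters parted: HXT7, a high-affinity carrier, was at 10.1, 4.03 and 2.60 in the deletion and 69.2, 40.5 and 29.1 in the wild type (-2.92 ± 0.51), while the weakly expressed HXT9, HXT11 and HXT17 rose by 1.33 ± 0.18, 1.33 ± 0.16 and 0.89 ± 0.18. Near-identical copies make all 4 uncertain, with 95.1% of the windows of HXT7 found elsewhere. HXT3 was at 498, 542 and 986 in the deletion and 1126, 1392 and 1366 in the wild type, called lower (adjusted p = 0.0241) but losing the call without any 1 of 4 of the 6 libraries (adjusted p up to 0.0867).

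Genes for less favoured carbon sources rose in part. Genes for sucrose, maltose and galactose had 8 of 13 called higher and 0 lower by limma, edgeR's quasi-likelihood test, DESeq2 or an unadjusted p under 0.05 (median 0.59). MAL31, a maltose permease, was at 52.6, 47 and 53.6 in the deletion and 32.6, 29.3 and 29.2 in the wild type (0.73 ± 0.08, adjusted p = 3.62e-05). MAL12 and MAL32, the maltases, were low in both groups and rose by 1.29 ± 0.13 and 1.26 ± 0.13, but 83.7% and 84.1% of their windows recur elsewhere in the genome. ADH2, the glucose-repressed alcohol dehydrogenase, was at 14.7, 20.4 and 15.9 in the deletion and 2.21, 2.88 and 2.89 in the wild type (2.29 ± 0.16, adjusted p = 1.76e-06), and PDC6, a minor pyruvate decarboxylase, at 6.61, 5.23 and 5.20 in the deletion and 0.937, 1.44 and 1.44 in the wild type (1.56 ± 0.22). ADH1, the main alcohol dehydrogenase on glucose, fell by 0.63 ± 0.09, so the low genes rose and the abundant one fell. MTH1, a repressor of HXT genes, was at 25.9, 28.6 and 25 in the deletion and 65.3, 57.9 and 64 in the wild type (-1.21 ± 0.08). ATO3, an ammonium transporter, fell by 1.73 ± 0.17, the 1 gene lower among 17 of gluconeogenesis and acetate use, where 8 were higher.

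Sterol genes and genes of thiamine and NAD synthesis were more often higher than lower. Of 27 genes of sterol synthesis and uptake 12 were called higher and 3 lower (median 0.14). ECM22, a sterol-sensing activator of that pathway, was at 221, 207 and 204 in the deletion and 79.2, 90.6 and 81.8 in the wild type (1.32 ± 0.08, adjusted p = 3.91e-07). ERG2, the sterol isomerase, rose by 0.70 ± 0.06 and ERG12, mevalonate kinase, by 0.57 ± 0.05, while HMG1, the main HMG-CoA reductase, fell by 0.86 ± 0.07. Of 23 inositol and phospholipid genes 7 were called higher and 2 lower. CHO2, the first methylase on the way to phosphatidylcholine, was at 107, 89.7 and 94.6 in the deletion and 252, 232 and 225 in the wild type (-1.28 ± 0.07, adjusted p = 3.12e-07), and CHO1, phosphatidylserine synthase, rose by 0.43 ± 0.06. Fatty acid genes had 1 higher and 3 lower of 12 (median 0.03), or 33.3% called, near the 29.3% of all genes. FAA3, an acyl-CoA synthetase, was at 31.1, 33 and 30.2 in the deletion and 88.2, 94.7 and 90 in the wild type (adjusted p = 2.49e-07). Thiamine and NAD synthesis had 8 of 15 called higher and 0 lower by limma, edgeR's quasi-likelihood test and DESeq2 (1 lower at an unadjusted p under 0.05), with a median of 0.45. The BNA genes act in tryptophan breakdown, part of which leads to NAD: BNA2, the first enzyme of the route, was at 9.91, 8.53 and 9.19 in the deletion and 3.32, 2.72 and 3.40 in the wild type (1.30 ± 0.15), BNA3 rose by 0.75 ± 0.08 and BNA5 by 0.69 ± 0.06. All 3 were above the wild type in every deletion library. THI4, of thiazole synthesis, was at 11.5, 11.4 and 9.10 in the deletion and 3.32, 4.25 and 4.43 in the wild type (1.22 ± 0.11, adjusted p = 1.58e-05). BNA2 overlaps YJR079W, so its reads are uncertain.

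Of 15 adenine and guanine synthesis genes 1 was called higher and 1 lower (median -0.06), with 3 higher under total-count scaling and 3 lower without replicate 3 of the deletion. In the main fit 13.3% were called, against 29.3% of all genes. ADE8, of purine synthesis, was the lower one (-0.74 ± 0.12). IMD2, IMP dehydrogenase of guanine nucleotide synthesis, was at 573, 458 and 593 in the deletion and 157, 209.9 and 181 in the wild type (1.56 ± 0.15), with 33.7% of its windows found elsewhere, and URA1, dihydroorotate dehydrogenase of pyrimidine synthesis, at 459, 599.9 and 876 in the deletion and 199, 308 and 287 in the wild type (1.26 ± 0.28).

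Genes of protein synthesis and turnover changed by small amounts. Mitochondrial ribosomal proteins had 32 of 67 called lower and 1 higher (median -0.19), or 13 and 2 with total-count scaling. Without replicate 3 or replicate 1 of the wild type 19 and 21 were called lower. MRP1, a small-subunit protein, was at 72.5, 83.4 and 75.7 in the deletion and 115, 110.3 and 109 in the wild type (-0.53 ± 0.06, adjusted p = 0.000122). Cytosolic ribosomal proteins had 18 of 138 called lower and 2 higher (median -0.10), the lower share close to that of all genes, or 7 and 7 with total-count scaling. The count lower was 9, 8 and 57 without replicates 1, 2 and 3 of the deletion, and 19, 7 and 8 without replicates 1, 2 and 3 of the wild type. RPS23A, of the small subunit, went the other way and was at 1398, 1502 and 1701 in the deletion and 755, 825 and 871 in the wild type (0.91 ± 0.09, adjusted p = 2.75e-05). Of 53 ribosome biogenesis genes UTP22 alone was called (-0.35 ± 0.08), yet the list's median relative to the wild type was -0.61, -0.12 and 0.24 in replicates 1, 2 and 3 of the deletion. All 53 were highest in replicate 3, the library in which stress genes were lowest, and without that library 8 were called lower. Proteasome genes had 8 of 33 called higher (median 0.11) and 0 lower by limma, edgeR's quasi-likelihood test, DESeq2 or an unadjusted p under 0.05. These 8 are 24.2% of the list, where 14.8% of all genes were called higher and 29.3% in either direction. With total-count scaling 17 were higher, where 1368 of all genes were. PRE7, a core subunit, was at 318, 307 and 307 in the deletion and 229, 229.5 and 228 in the wild type (0.44 ± 0.05).

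Chromatin genes changed by small amounts, apart from SNF2 and SPT6. Among 11 SWI/SNF subunit genes other than SNF5, SNF2 was at 157, 162 and 141 in the deletion and 103, 97 and 92.7 in the wild type (0.64 ± 0.08, adjusted p = 0.000166), with no overlap. SNF2 carries the tag in the wild type and not in the deletion, and the effect of the tag and of the deletion on it cannot be told apart. SNF6, which carries the tag in the deletion, was at 126, 111 and 99.8 in the deletion and 113, 120.4 and 112 in the wild type and not called (-0.04 ± 0.08, adjusted p = 0.74; 0.05 with total-count scaling). SWI3, SNF12, SWP82, SNF11, SWI1 and ARP9 were not called either, with fold changes between -0.09 and 0.11. TAF14 (0.20 ± 0.04), RTT102 (0.17 ± 0.05) and ARP7 (0.17 ± 0.05) were called higher by small amounts. Subunit genes called higher numbered 4 in the main fit, SNF2 among them, and 2 or 3 with any 1 of the 6 libraries left out. Without replicate 1 of the deletion 2 subunit genes were called lower, SNF5 among them. SPT6, a histone chaperone of transcript elongation, was at 420.4, 423 and 450 in the deletion and 212, 199 and 218 in the wild type (1.04 ± 0.06, adjusted p = 6.84e-07), the largest change among 19 other remodeler and chaperone genes. STH1, the ATPase of the related remodeler RSC, rose by 0.35 ± 0.05, and NPL6, an RSC subunit, by 0.29 ± 0.06, while RSC58 fell by 0.48 ± 0.08. Of 11 histone genes 3 were called higher and 1 lower, with 1 higher without any 1 of the wild-type libraries and 5 with total-count scaling. The share called in the main fit was 36.4%, against 29.3% of all genes. HTZ1, the variant H2A.Z, was at 0.33 ± 0.07 and HTA1, an H2A gene, at -0.33 ± 0.08.

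**Figure D4:**
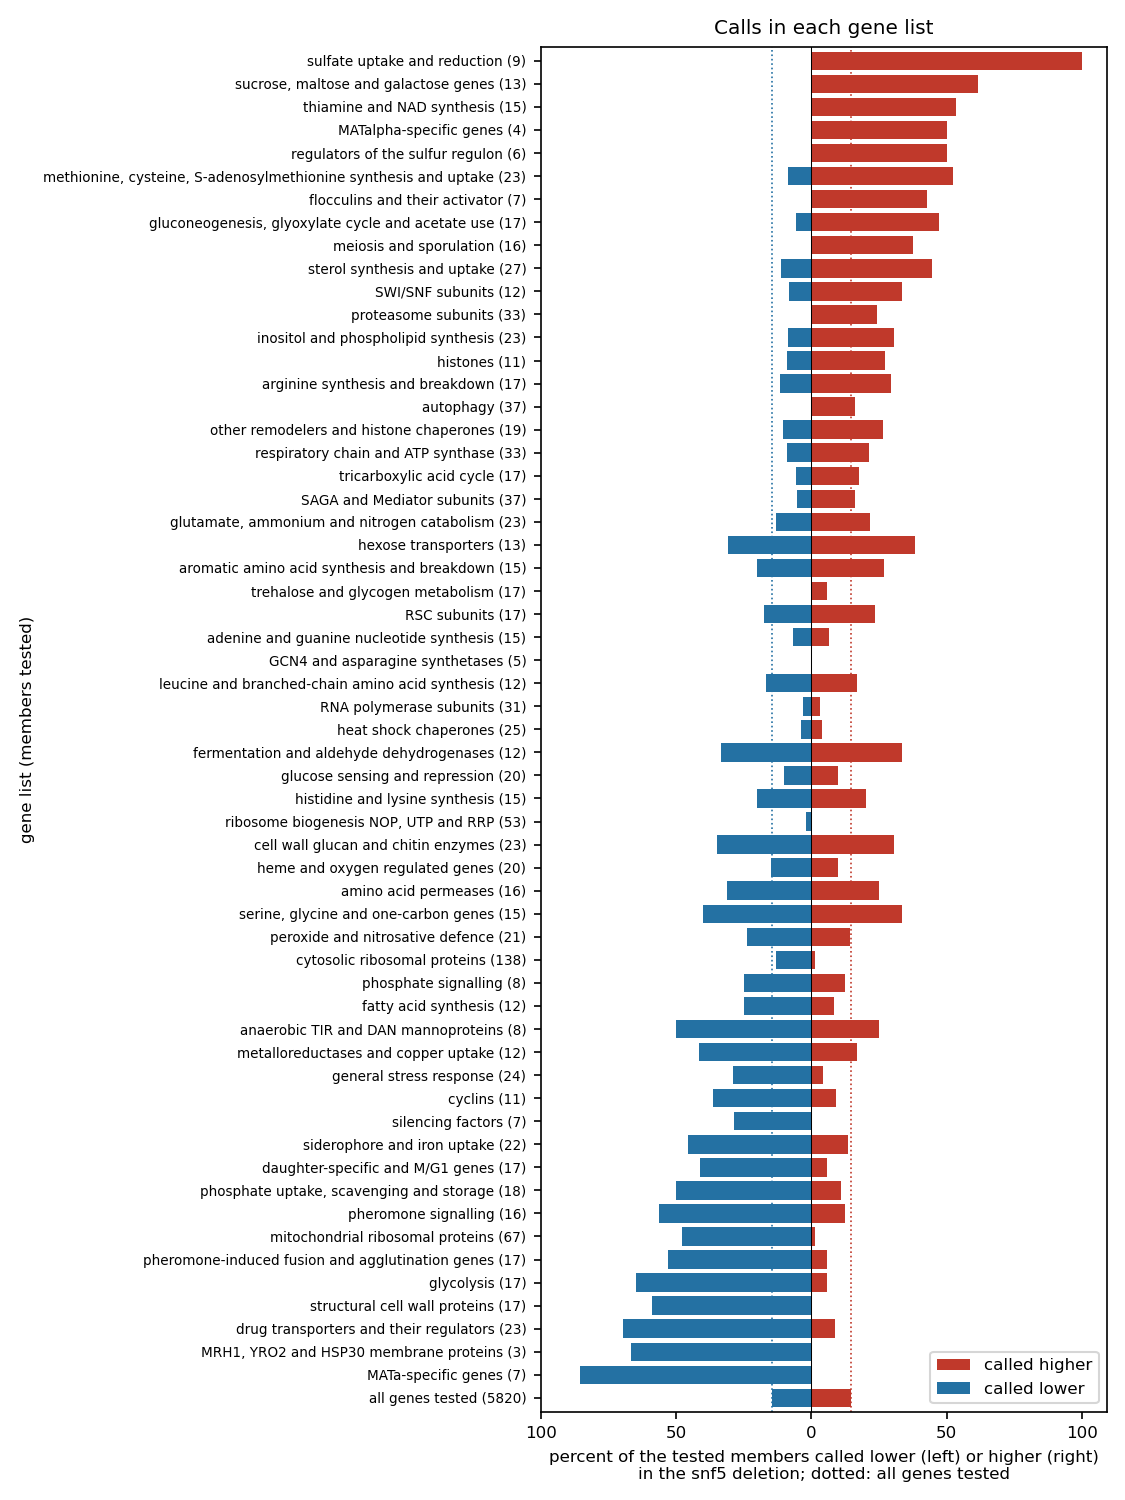
Percent of the tested members of each of 58 gene lists called lower (left, blue) or higher (right, red) in the snf5 deletion, with the number tested in brackets and the lists ordered by the share higher minus the share lower, highest at the top and all genes at the bottom. Dotted lines mark the shares over all genes tested, 14.5% lower and 14.8% higher. The 9 sulfate genes stand at 100% higher and the 7 a-specific genes at 85.7% lower.

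Position was described over the 5626 tested genes placed on nuclear chromosomes, and level over all 5820. Within 10 kb of a chromosome end lay 60 tested genes, of which 10% were called at least 2-fold higher and 8.33% at least 2-fold lower, and from 10 to 20 kb the shares were 8.16% and 4.08% of 98 genes. Over 40 kb from an end they were 1.58% and 2.69% of 5204 genes. Genes near the ends include copies of repeated families such as the HXT genes above, whose reads are uncertain. Chromosome medians lay between -0.04 and 0.07, so no whole chromosome stood apart. Weakly expressed genes, under 3 scaled CPM on average over the 6 libraries, had 7.29% called at least 2-fold higher and 3.21% lower. From 3 to 10 the shares were the highest in both directions, 9.52% and 6.85%, from 300 to 1000 they were 1.43% and 3.89%, and over 1000 they were 0.690% and 1.38%. Both genes were called in 128 of 1359 divergent neighbour pairs (9.42%), 283 of 2573 tandem pairs (11%) and 104 of 1401 convergent pairs (7.42%). Of the 128 divergent ones 34 were both higher, 32 both lower and 62 in opposite directions. Among all genes tested 29.3% were called, and the share of pairs that this alone would give was not worked out. The pair counts are therefore no measure of a link between neighbours.

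Over the 161 genes called at least 2-fold lower that have a 500-base window, the letters TATAAA stood in 72.7%, against 62.7% of the 102 called at least 2-fold higher and 60.2% of all 5626. TGTGGC stood in 15.5% of the lower, 29.4% of the higher and 14.3% of all, and CACGTG in 6.21%, 16.7% and 6.27%. AGGGG stood in 30.4%, 45.1% and 34.4%, and TGAAACA in 13.0%, 3.92% and 11.7%. CCCCGC, known for the glucose repressor Mig1, stood in 4.97%, 9.80% and 5.78%, and GATGAG, of ribosome biogenesis promoters, in 26.1%, 20.6% and 28.0%. These are matches of letters on both strands and no measure of binding. Neighbouring genes can share a window, and motifs here can overlap within it.

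The snf5 deletion was also set against the libraries labelled snf2 deletion, which lack the ATPase itself. LEU2 goes against a label there: it had 0 reads in the libraries labelled snf2 deletion and swp82 deletion, and 78.6, 56.9 and 88.5 scaled CPM in the snf5 deletion, although the labels give every strain a tag with LEU2. Differences from those libraries therefore go with LEU2 status as well. limma called 726 genes (12.5%), 337 higher and 389 lower in the snf5 deletion, of which 10 and 45 (0.172% and 0.773% of genes) differed at least 2-fold. Leaving out any 1 replicate labelled snf2 deletion gave 322, 349 or 375 calls, and leaving out replicate 2 of the snf5 deletion 482. HSP12 was at 2.45, 2.66 and 1.21 in the snf5 deletion and 175, 161 and 154 in the snf2 deletion (-5.76 ± 0.52, adjusted p = 0.000124), on the 2 sides of the wild type, whose libraries were at 136, 46.7 and 42.8. SED1 was at 347, 312 and 223 in the snf5 deletion and 1819.8, 1292 and 1404 in the snf2 deletion (-2.36 ± 0.19, adjusted p = 5.66e-05), and YGP1 at 74.3, 40.6 and 30.4 in the snf5 deletion and 488, 359 and 399.7 in the snf2 deletion (-3.16 ± 0.31). No overlap occurred in these 3 genes, because the choice of genes required it. SER3 was at 144, 122 and 149 in the snf5 deletion and 1179.8, 1264 and 1252 in the snf2 deletion (-3.15 ± 0.08, adjusted p = 3.58e-10), and FMP48, a putative protein kinase, at 14, 6.14 and 8.54 in the snf5 deletion and 87.9, 57.2 and 60.2 in the snf2 deletion (-2.76 ± 0.31). In the general stress list 9 of 24 genes were called lower in the snf5 than in the snf2 deletion, against 6.68% of all genes, and 0 higher by limma, edgeR, DESeq2 or an unadjusted p under 0.05.

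In the other direction, apart from LEU2 and the deleted SNF2, arginine genes were among those with large differences. ARG1 was at 222, 286 and 588 in the snf5 deletion and 41.5, 60.1 and 64.8 in the snf2 deletion (2.60 ± 0.30, adjusted p = 0.000613), and ARG3 at 19.7, 35.4 and 77.6 in the snf5 deletion and 7.72, 8.16 and 8.19 in the snf2 deletion (2.11 ± 0.35). ASN1 was at 543, 656 and 1078 in the snf5 deletion and 264, 313 and 308 in the snf2 deletion (1.30 ± 0.20, adjusted p = 0.00287). Replicate 3 of the snf5 deletion was highest in each, and even the lowest snf5 deletion library was above every snf2 deletion library. Of 17 arginine genes 7 were called higher in the snf5 deletion, of 138 cytosolic ribosomal protein genes 56, and of 27 sterol genes 8, against 5.79% of all genes. Among the snf5 deletion libraries 136 of the 138 ribosomal protein genes were highest in replicate 3. With the 2 groups alone 82 genes in all were called higher. None of these lists had a gene called lower by limma, edgeR or DESeq2, though 2 arginine genes were lower at an unadjusted p under 0.05. Of 33 genes for the respiratory chain and ATP synthase 15 were called lower and 0 higher by limma, edgeR, DESeq2 or an unadjusted p under 0.05. The sulfate genes, in contrast, gave 0 calls of 9 between the 2 deletions by limma, edgeR and DESeq2, with 1 higher and 1 lower at an unadjusted p under 0.05 and a median difference of 0.15.

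**Figure D5:**
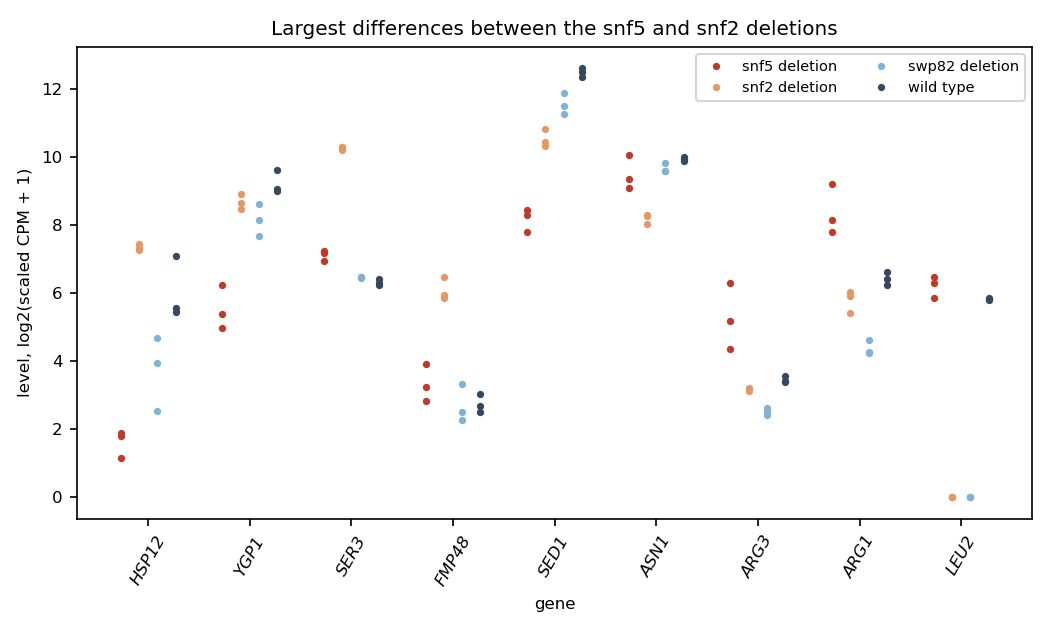
Levels on the log2(scaled CPM + 1) scale of 9 genes among those with the largest differences between the snf5 and snf2 deletions, the deleted genes left out. Points are the 3 libraries each of the snf5, snf2 and swp82 deletions and, last, the wild type. HSP12 is below every wild-type library in the snf5 deletion and above every one in the snf2 deletion, and LEU2 is at 0 in the libraries labelled snf2 and swp82 deletion.

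Against the libraries labelled swp82 deletion, which lack an accessory subunit, limma called 2438 genes (41.9%), 1189 higher (20.4%) and 1249 lower (21.5%) in the snf5 deletion, of which 152 (2.61%) and 147 (2.53%) differed at least 2-fold. QDR2 was at 2.08, 1.74 and 2.23 in the snf5 deletion and 113, 102 and 141 in the swp82 deletion (-5.30 ± 0.11, adjusted p = 7.4e-11). YGR035C was at 5.47, 6.14 and 9 in the snf5 deletion and 194, 249 and 231 in the swp82 deletion (-4.86 ± 0.15), and ZEO1 at 36.9, 43.8 and 34.3 in the snf5 deletion and 839, 909.6 and 969 in the swp82 deletion (-4.53 ± 0.11). In the other direction CLD1 was at 40.1, 43.7 and 34.4 in the snf5 deletion and 2.47, 2.90 and 2.06 in the swp82 deletion (3.54 ± 0.14) and ARG1 at 222, 286 and 588 in the snf5 deletion and 23.7, 17.8 and 18.1 in the swp82 deletion (4.02 ± 0.30, adjusted p = 2.76e-06). In none of these 5 genes did the groups overlap, which the choice of genes required.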

How the data were processed

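Hot acid phenol RNA of log-phase cultures was made into TruSeq stranded mRNA libraries, per the labels' protocols. Per the submitters' processing notes, the tools included edgeR 3.8.6, Bowtie2 2.1.0 and TopHat2 2.0.10, with sacCer3 as the build. How reads were counted, with which strand setting and annotation, is not given in the sources used here. What the authors deposited is a signal, CPM divided by a scaling factor for each library. Dividing by the worth of 1 read gave whole numbers for 100% of the deposited values (tolerance 0.05 of a read), and these recovered counts served the count tests. Libraries held 9012746 to 12875057 reads over the 4 groups of 3, so genes near 1 scaled CPM rest on few reads.

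A gene was kept if 3 or more of the 12 libraries reached a value of 1, which removed 115 of 5935. limma 3.58.1 (R 4.3.3, with a trend) was fitted by group, with no other term, to log2(value + 1) over the 12 libraries, and p-values were adjusted by Benjamini-Hochberg over the 5820 genes and called under 0.05, two-sided. edgeR 4.0.16 (quasi-likelihood) and DESeq2 1.42.0 on recovered counts, total-count and upper-quartile scaling, a pseudocount of 0.1, no filter, the 2 groups alone, a replicate block and each library left out were alternatives. The fits were tested on simulated counts with the same spread in every group. That test does not cover the wider spread among the snf5 deletion libraries. Figures and tables were made with Python 3.11.15, pandas 2.3.3 and numpy 2.4.6.

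Gene lists, and the choice of comparison, were made with earlier results of these data known, so list counts are descriptions with no list test. Named genes are the SWI/SNF subunits, the 15 highest and 15 lowest fold changes among calls of at least 2-fold without overlap, the 5 most abundant such genes in each direction, up to 4 called members of each list by smallest p, and the largest differences from the other 2 deletions. Other genes named are marked as such. URA3 and MET17 are not analysed here. Replicate numbers come from the sample labels. Deviations of same-numbered libraries correlated at 0.617, 0.0521 and 0.423 between the snf5 deletion and the wild type. Replicates 1 and 3 of the deletion thus correlated best with their own number, and replicate 2 did not (0.0542 with replicate 3). Between the snf5 and swp82 deletions same-numbered libraries correlated at 0.660, 0.116 and 0.386. Replicate 3 of the snf5 deletion correlated better with replicate 2 of the swp82 deletion (0.549). The labels do not say that equal numbers mark a shared culture, so all comparisons were fitted as unpaired. Whether the libraries were paired was not settled, and a replicate block was fitted as an alternative. Promoter letters were read from the RefSeq R64 genome, to which 5685 of the table's names matched and 250 did not. Windows of 50 bases that recur in the genome mark uncertain genes.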

Additional observations from a re-analysis of the deposited data

How the results depend on the processing

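Between the snf5 deletion and the wild type the count of calls stayed within 1.5 times of 1704 under the other tools, filter and pseudocount (1715 with edgeR, 1781 with DESeq2, 1253 with the 2 groups alone), and total-count scaling turned the split to 1368 higher and 549 lower. Leaving out 1 library gave 1220 to 1929 calls (599 to 957 higher, 621 to 972 lower) and, at least 2-fold, 107 to 121 higher and 152 to 167 lower. With a replicate block 2030 genes were called, 1007 higher and 1023 lower, where only replicates 1 and 3 of the deletion correlated best with the same-numbered wild-type library. Against the snf2 deletion the 2 groups alone gave 225 calls (82 higher, 143 lower) and leave-outs 322 to 908 (139 to 421 higher, 183 to 487 lower). Against the swp82 deletion the 2 groups alone gave 1314 (643 higher, 671 lower), total-count scaling 2283 higher and 601 lower, leave-outs 1746 to 3033 (859 to 1462 higher, 887 to 1571 lower), and the replicate block 2942. Among 238 named genes 236 kept their side of the threshold with edgeR, 236 with DESeq2, 227 with total-count scaling and 214 to 228 with 1 library left out. Reversals were in subunit genes near 0 that were not called: with total-count scaling SNF6 was at 0.051 and SWI1 at 0.042, and leave-outs gave -0.126 to 0.041 for SNF6, -0.208 to 0.051 for SWI1, -0.0076 to 0.076 for SNF11 and -0.013 to 0.019 for SWI3. The cause of these shifts was not tested, and the smaller fits also hold fewer libraries. Depth limits genes near 1 scaled CPM, and 3 libraries a group limit the rest.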

Other observations

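Some single genes outside the groups above changed strongly. AAC1, a minor ADP/ATP carrier of the mitochondrial inner membrane, was at 61.4, 63.2 and 70.1 scaled CPM in the snf5 deletion and 16, 16.6 and 15.3 in the wild type, a log2 fold change of 1.96 ± 0.11 (limma adjusted p = 3.31e-07). Its groups were well apart. NDE1, an external NADH dehydrogenase of mitochondria, was at 145, 148 and 168 in the deletion and 329.6, 326 and 310.2 in the wild type (-1.06 ± 0.09), and CYC1, cytochrome c, at 48.6, 57.2 and 44.6 in the deletion and 103, 103 and 96.4 in the wild type (adjusted p = 0.000193), so both genes were lower without overlap. Of 33 genes for the respiratory chain and ATP synthase 7 were called higher and 3 lower, with a median of 0.04, in all a share near the 29.3% of all genes. The counts were 3 and 5 without replicate 1 of the deletion and 2 and 2 without replicate 2 of the wild type, and 4 and 2, 4 and 2, and 3 and 3 without replicate 2 of the deletion or replicates 1 and 3 of the wild type. Genes of peroxide and nitrosative defence had 3 of 21 higher and 5 lower, against 14.8% and 14.5% of all genes. The number higher was 0 without replicate 1 of the deletion or replicates 1 or 2 of the wild type, and 1 without replicate 2 of the deletion or replicate 3 of the wild type. GPX2, a glutathione peroxidase, fell to 10.9, 11.5 and 12.1 in the deletion, against 119, 113 and 108 in the wild type (-3.19 ± 0.12, adjusted p = 1.33e-08), and SOD1, the copper-zinc superoxide dismutase, was at 874, 889 and 828 in the deletion and 1458, 1365 and 1392 in the wild type (-0.70 ± 0.09).

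Genes of meiosis, autophagy and adhesion had no member called lower by limma. Of all genes 14.5% were called lower, so 0 among the 7 flocculin or 16 meiosis genes says little. The share of autophagy genes called higher, 16.2%, was near that of all genes. Of 16 meiosis and sporulation genes tested 6 were called higher and 0 lower by limma, edgeR's quasi-likelihood test or an unadjusted p under 0.05, and DESeq2 called 5 higher. SPR3, a sporulation septin, was at 3.59, 3.21 and 3.16 in the deletion and 0.681, 0.481 and 1.03 in the wild type (1.33 ± 0.19, adjusted p = 0.000335). Of 37 autophagy genes 6 were called higher and 0 lower by limma, edgeR and DESeq2, with 1 lower at an unadjusted p under 0.05, where 14.8% of all genes were higher. Without replicate 2 of the deletion or replicates 2 or 3 of the wild type 3 were higher, and without replicate 1 of the deletion 4 were higher and 1 lower. ATG41, which acts in autophagosome formation, was at 107, 119 and 192 in the deletion and 49.5, 44.6 and 49.1 in the wild type (1.48 ± 0.22, adjusted p = 0.000494). The groups did not overlap in either gene. Of 7 flocculin genes and activators 3 were called higher and 0 lower by limma, edgeR, DESeq2 or an unadjusted p under 0.05, with 2 higher without replicate 2 or 3 of the wild type. FLO11, the flocculin of adhesion and invasive growth, was at 112, 78.3 and 63.8 in the deletion and 61.2, 46.6 and 49.1 in the wild type (0.66 ± 0.17, adjusted p = 0.0157), a call that held in 4 of the 6 fits that left out a library.

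A pair of classic SWI/SNF target genes, named after their values were seen, were not called. SUC2, the invertase gene, was at 122, 129 and 139.7 in the deletion and 119, 122 and 125 in the wild type (0.09 ± 0.07, adjusted p = 0.367), and the groups overlapped. INO1, inositol phosphate synthase, was at 14.7, 10.6 and 11 in the deletion and 8.77, 9.38 and 9.90 in the wild type (0.33 ± 0.12, adjusted p = 0.0645). All deletion libraries of INO1 were above those of the wild type, and the test did not call the gene.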
